A study of Mus musculus with 2 samples.

Results

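Crowded windows are stretches of 10 kb of the mouse genome in which DNase-seq placed 8 or more separate peaks. The genome (build mm10) was divided into fixed windows of 10 kb, and a window was kept where the midpoints of 8 or more peaks fell in it in at least 1 library. Of 63171 windows with at least 1 midpoint in either library, 462 were crowded (0.731% of them). They comprised 76 windows crowded in both libraries, 134 in replicate 1 only and 252 in replicate 2 only. Replicate 1 had 210 crowded windows of 59469 with a midpoint (0.353%) and replicate 2 had 328 of 38400 (0.854%).

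DNase I cuts DNA where it is not wrapped by nucleosomes, so a pile of cut ends marks a promoter, enhancer or insulator that proteins hold open. A bound protein shields the bases beneath it, and the short protected stretch within a peak is called a footprint. Groups of neighbouring open sites are known from the regulatory domains of genes that define a cell's identity, from broad promoters rich in CpG dinucleotides, and from the bodies of strongly transcribed genes.

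The 2 libraries were made from gastrocnemius, a calf muscle in which fast fibres predominate, taken from male B6CASTF1/J mice, the F1 hybrid of C57BL/6J and CAST/EiJ, at 25 days of age. Both carry 1 donor identifier, but their biosample descriptions number different males, so whether the spread between them is biological or technical rests on those descriptions. There was 1 group. Whole tissue was used, so the share of cells in which a site was open and its openness within a cell cannot be told apart. Replicate 1 held 97499 peaks and 243784 footprints and replicate 2 held 61664 and 171389. Peak signal is the authors' value and moved in equal steps within a library, as a count of tags scaled to the size of the library would. On that reading, which comes from the values, the libraries held 169 and 117 M tags. Promoters of all 7 skeletal muscle markers examined, all 4 of endothelium and all 3 of fibro-adipogenic progenitors had a peak in both libraries, as had 2 of 3 of Schwann cells, and the 3 markers of macrophages, 3 erythroid markers and 2 hepatocyte markers had none in either.

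The midpoint counts of the same library chose the windows, so those counts, and the signals and footprints that go with them, are given as a description without a test. Peak sequences from 6 windows are given because they stand for the kinds of window described later: windows dense in exons (Plec, Flnc), a strong exonic peak (Smtn), an intron of a crowded transcription factor gene (Nfic and Celf5) and repeated words at the start of a chromosome assembly. Each is the strongest peak of at most 300 bases in its window that touches no untranslated region. The letters are the mm10 reference, 5′ to 3′, and capitals mark the footprints of the library that supplied the peak.
Plec (chr15:76170675-76170880, plus strand): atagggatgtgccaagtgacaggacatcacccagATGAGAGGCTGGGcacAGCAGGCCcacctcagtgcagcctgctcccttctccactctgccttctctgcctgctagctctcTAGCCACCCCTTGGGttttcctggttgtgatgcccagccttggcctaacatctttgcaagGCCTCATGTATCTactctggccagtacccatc
Chromosome 4 centromeric end (chr4:3067821-3068120, plus strand): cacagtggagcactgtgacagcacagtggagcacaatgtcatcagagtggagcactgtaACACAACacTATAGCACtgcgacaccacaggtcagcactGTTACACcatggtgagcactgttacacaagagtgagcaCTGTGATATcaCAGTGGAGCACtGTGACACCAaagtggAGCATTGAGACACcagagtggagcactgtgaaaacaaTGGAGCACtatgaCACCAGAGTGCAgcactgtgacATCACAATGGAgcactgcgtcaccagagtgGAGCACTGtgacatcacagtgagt
Flnc (chr6:29444821-29445040, plus strand): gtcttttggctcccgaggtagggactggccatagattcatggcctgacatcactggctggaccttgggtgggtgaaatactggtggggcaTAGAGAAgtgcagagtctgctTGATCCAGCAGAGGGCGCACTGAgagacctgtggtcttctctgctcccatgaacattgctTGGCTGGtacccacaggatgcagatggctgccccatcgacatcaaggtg
Smtn (chr11:3535421-3535620, plus strand): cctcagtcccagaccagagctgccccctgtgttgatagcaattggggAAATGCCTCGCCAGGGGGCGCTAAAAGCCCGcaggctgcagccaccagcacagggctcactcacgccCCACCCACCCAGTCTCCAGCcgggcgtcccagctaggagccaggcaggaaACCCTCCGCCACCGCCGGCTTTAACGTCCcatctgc
Chromosome 17 centromeric end (chr17:3012161-3012400, plus strand): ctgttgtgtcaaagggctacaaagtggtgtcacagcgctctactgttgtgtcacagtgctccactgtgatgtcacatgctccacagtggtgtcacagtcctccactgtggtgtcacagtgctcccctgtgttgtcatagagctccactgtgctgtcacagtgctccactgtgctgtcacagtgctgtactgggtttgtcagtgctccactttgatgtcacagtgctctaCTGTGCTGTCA
Nfic and Celf5 (chr10:81450241-81450460, plus strand): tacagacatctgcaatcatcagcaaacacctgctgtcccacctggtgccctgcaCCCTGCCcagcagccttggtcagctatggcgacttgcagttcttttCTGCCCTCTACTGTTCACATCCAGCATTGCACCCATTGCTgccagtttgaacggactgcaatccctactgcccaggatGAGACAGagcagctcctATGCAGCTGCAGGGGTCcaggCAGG

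The Plec peak had a signal of 0.379 (64 tags) in replicate 1 and overlapped no peak of replicate 2. It lies just past the annotated end of the gene. On chromosome 4 the peak had 0.639 (108 tags) in replicate 1 and 0.803 in the overlapping peak of replicate 2, with 11 footprints. The Flnc peak, in an intron, had 0.704 (119 tags) in replicate 1 and 0.854 in replicate 2, with 3 footprints. At Smtn the exonic peak had 7.07 (1196 tags) in replicate 1 and 6.59 in replicate 2. It held CCAAT, the box bound by NF-Y, on the opposite strand (attgg as printed), outside the footprints. The chromosome 17 peak had 0.282 (33 tags) in replicate 2 and no counterpart in replicate 1. In the intron at Nfic and Celf5 the peak had 1.41 (165 tags) in replicate 2 and 1.98 in replicate 1, and it held CAGCTG, an E-box of the kind bound by myogenic factors. Of the 6 peaks shown, the 4 with a counterpart in the other library thus had signals of the same order in both. The chromosome 4 and chromosome 17 sequences are built from the same repeated words on opposite strands.

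The library that had not chosen a window offered a reading of it that the rule did not use. In the 210 windows chosen by replicate 1, replicate 2 had a median of 7 midpoints (range 0 to 18). It had 8 or more in 76 of them (36.2%) and none in 5 (2.38%), where it had none in 41.7% of all windows with a midpoint of replicate 1. In the 328 windows chosen by replicate 2, replicate 1 had a median of 3 midpoints (range 0 to 21). It had 8 or more in 76 (23.2%) and none in 62 (18.9%), where it had none in 9.64% of all windows with a midpoint of replicate 2. Over all windows with a midpoint in one library, the other library had a median of 1. Of the 134 windows crowded in replicate 1 only, 90 had 4 to 7 midpoints of replicate 2. Of the 252 crowded in replicate 2 only, 75 had 4 to 7 midpoints of replicate 1, 115 had 1 to 3 and 62 had none. Depth, instrument and animal cannot be told apart between 2 libraries, and instrument models are named in the labels for replicate 1 only.

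**Figure D1:**
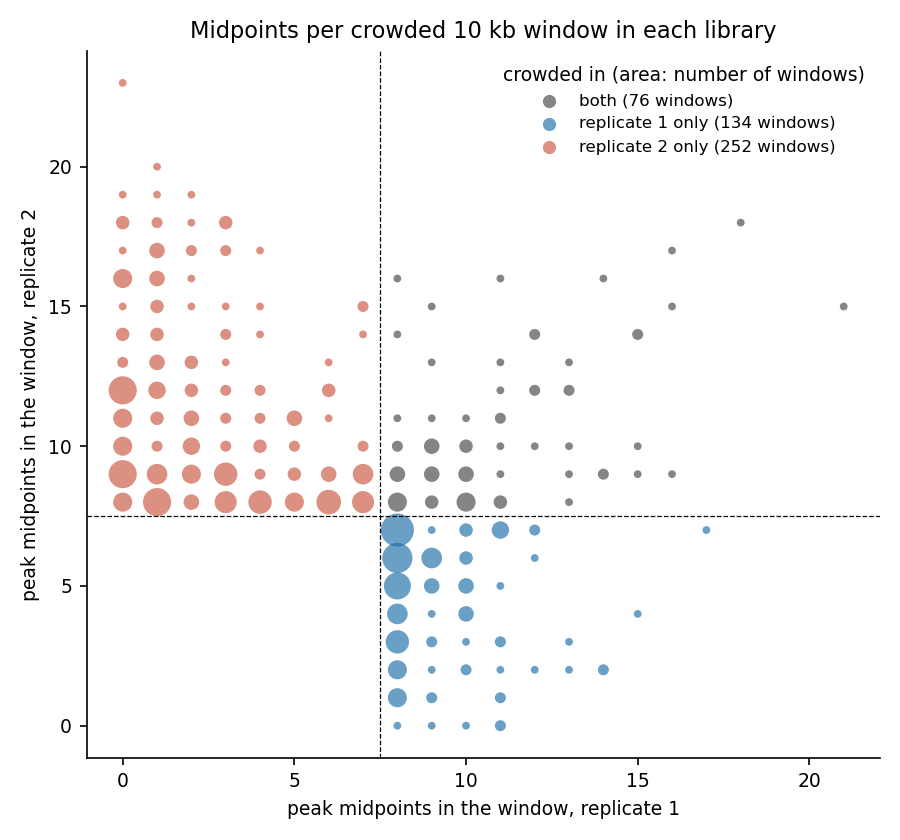
Peak midpoints per crowded window in replicate 1 (x axis) and replicate 2 (y axis), with the area of a point giving the number of windows and dashed lines between 7 and 8. The 252 windows crowded in replicate 2 only spread from 0 to 7 midpoints of replicate 1, with the tallest of them at the left edge, while 90 of the 134 crowded in replicate 1 only have 4 to 7 midpoints of replicate 2.

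Crowded windows carried more exon and more G and C than windows with a midpoint in general. Exons of any annotated gene took a median of 24.3% of a window crowded in both libraries, 16.9% in replicate 1 only and 15.96% in replicate 2 only. The order of the classes depended on the peaks counted: with the stricter lists the medians were 13%, 17.3% and 17.9%, and with peaks joined over gaps of at most 100 bp they were 15.8%, 20.2% and 17.005%. The median was 2.14% over all windows with a midpoint in replicate 1 and 3.68% for replicate 2. Taken by library, the median exon content averaged 17.9% ± 0.509 (SD, n = 2). The 2 sets of windows share the 76 crowded in both, so this SD is not a spread between independent measurements. Coding sequence alone took 6.75%, 2.55% and 4.72% of windows in the 3 classes, against a median of 0 over all windows of either library. G and C made up 52.4%, 51.4% and 51.4%, against 44.9% and 45.6% over all windows. These classes differed little in GC content. Repeat-masked sequence took a median of 14.4%, 16.7% and 15.8%, against 23.8% over all windows of either library.

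CpG dinucleotides separated the classes further than GC content did. CpG is depleted from most of the mouse genome through methylation and decay, and its observed count relative to that expected from base composition stays high at unmethylated islands. The median ratio was 0.446 in windows crowded in both, 0.365 in replicate 1 only and 0.249 in replicate 2 only. All windows with a midpoint had 0.214 for replicate 1 and 0.234 for replicate 2. The windows crowded in replicate 2 only were therefore rich in G and C with a CpG ratio close to that of windows in general. At the threshold, windows with at most 7 midpoints in either library and 7 in replicate 1 had 10.8% exon and 50.3% GC, and those with 8 in replicate 1 had 16.5% and 50.9%. The same values for replicate 2 were 12.7% and 51.0% at 7 and 17.1% and 51.5% at 8.

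**Figure D2:**
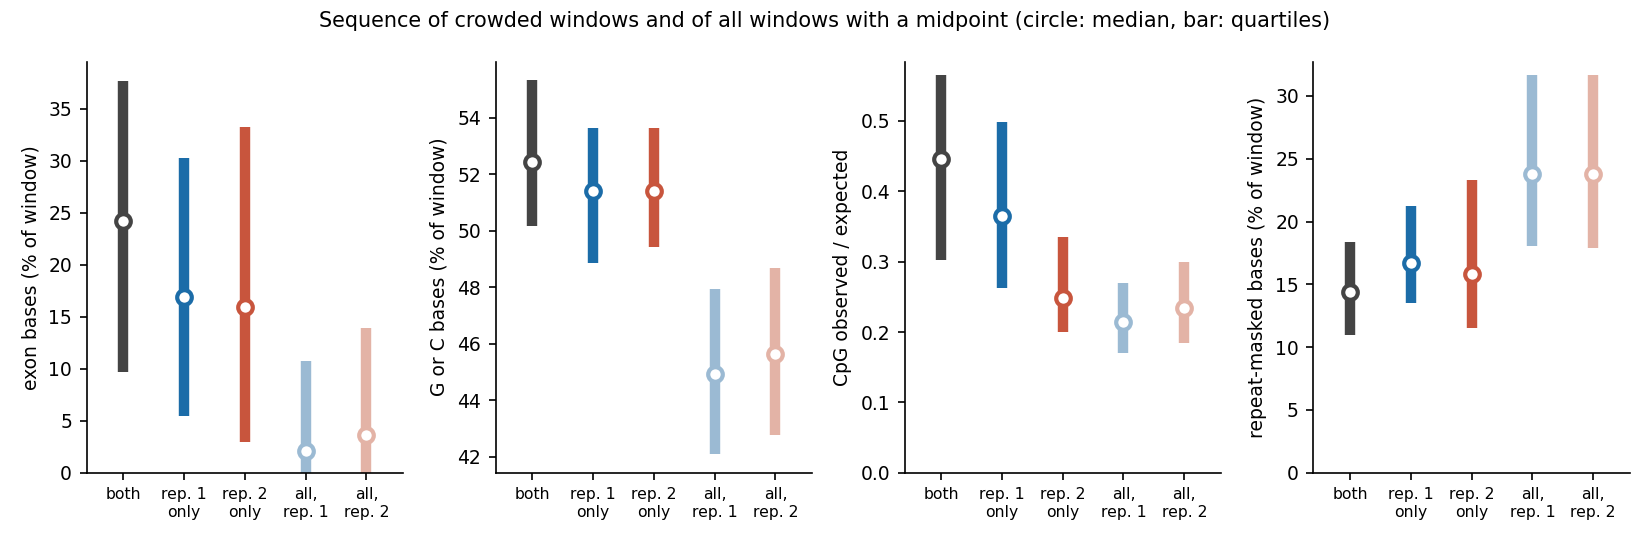
Exon, GC, CpG ratio and repeat content of windows crowded in both libraries, in 1 library only, and of all windows with a midpoint in each library; circles are medians over windows and bars span the quartiles. Exon and GC content lie above the general level in all 3 classes, while the CpG ratio of windows crowded in replicate 2 only (0.249) lies near that of all windows.

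A protein-coding gene overlapped 68 of the 76 windows crowded in both (89.5%), 119 of 134 in replicate 1 only (88.8%) and 199 of 252 in replicate 2 only (79.0%). Sequence of any annotated gene was present in 96.1%, 93.3% and 84.9% of the windows in these classes, against 74.5% and 78.0% of all windows with a midpoint in replicates 1 and 2. The start of a coding gene fell in 51 (67.1%), 85 (63.4%) and 89 (35.3%) of them. Over all windows with a midpoint, a start fell in 22.1% for replicate 1 and 32.2% for replicate 2. Windows crowded in replicate 2 only thus held a start about as often as any window with a peak of that library. Those of them with a start had a median CpG ratio of 0.338 and a median strongest peak of 3.37 in replicate 2, and the 163 without had 0.220 and 0.863. Of windows crowded in both, the 51 with a start had 0.511 and a strongest peak of 4.38 in replicate 1, and the 25 without had 0.262 and 1.77. In all, 455 of 21938 protein-coding genes overlapped a crowded window (2.07%). Their median length was 17385 bp against 17425 bp for the other coding genes.

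The peaks within the classes were of different strength. In windows crowded in both, the median signal was 0.728 over 823 peaks of replicate 1 and 1.00 over 796 peaks of replicate 2. The medians over all peaks were 0.674 and 0.974. The 1220 peaks of replicate 1 in windows crowded in it alone had a median of 0.704, and the 606 peaks of replicate 2 there had 1.4996 (175.5 tags). The 2795 peaks of replicate 2 in windows crowded in it alone had 0.350 (41 tags), and the 623 peaks of replicate 1 there had 1.19. Crowding in replicate 2 only was thus made of weak peaks, with fewer peaks of replicate 1 in the same windows. The 1.19 and the 0.350 are medians over different sets of peaks. Where peaks of the 2 libraries overlapped there, their signals were close. The median log2 ratio of replicate 1 to replicate 2 was -0.0804 over 535 peaks of replicate 1 and -0.0630 over 555 peaks of replicate 2. The strongest peak stood at 3.51 and 3.22 (medians, replicates 1 and 2) in windows crowded in both and at 4.13 and 3.83 in replicate 1 only. It stood at 2.37 and 1.49 in replicate 2 only. Windows without a peak of the library read are left out of these medians. That leaves 190 of 252 windows for the 2.37 and 129 of 134 for the 3.83. Positions listed by the authors at q below 0.05 covered medians of 4444.5 and 4053 bp (replicates 1 and 2) of a window crowded in both, 3325.5 and 2050.5 bp in replicate 1 only, and 599.5 and 3798 bp in replicate 2 only. Every peak in both libraries was under a signal of 1 in 88 of these 252 windows (34.9%), in 9 of 76 (11.8%) crowded in both and in 11 of 134 (8.21%) in replicate 1 only. The share over all windows with a midpoint was 59.9%. Those windows held a median of 1 midpoint in each library, and more peaks make it harder for all to lie under 1. The lower shares of crowded windows thus follow in part from the rule.

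**Figure D3:**
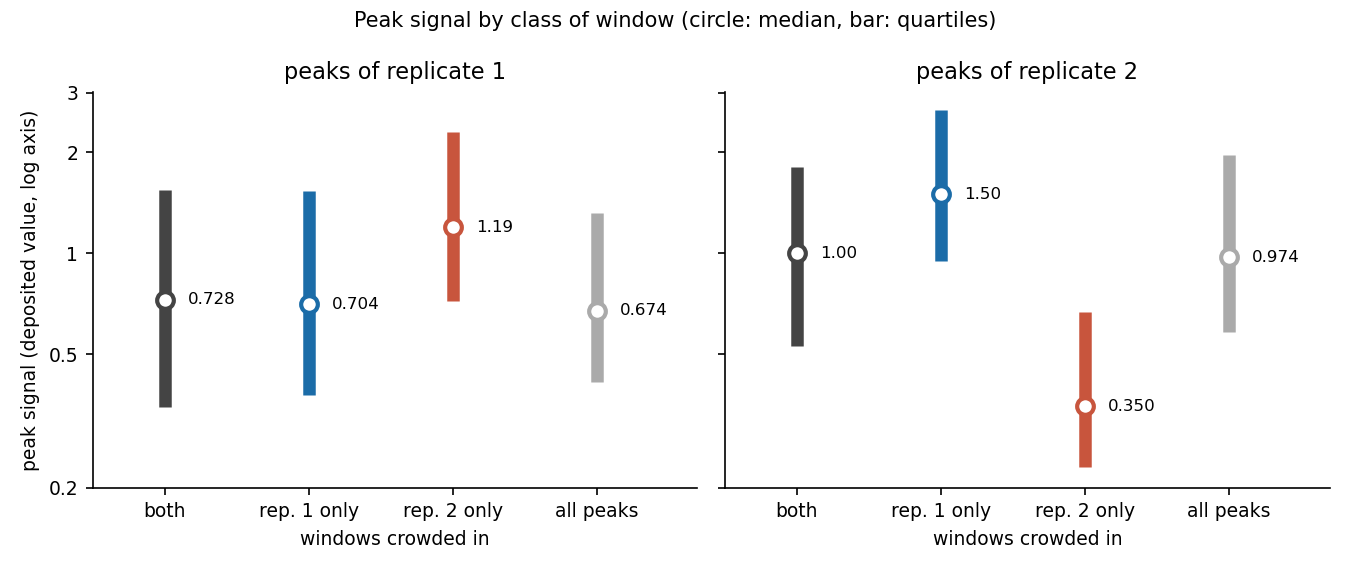
Signal of the peaks of replicate 1 (left) and replicate 2 (right) by the class of window that holds them, on a log axis, with circles for medians over peaks and bars for quartiles. Peaks of replicate 2 in windows crowded in it alone have a median of 0.350, below the 0.974 over all its peaks, and peaks of replicate 1 in those windows have 1.19.

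Overlap between the libraries peak by peak is largely fixed by the classes, which use the midpoints of both, and is given as a description. In windows crowded in both, 79.7% of the peaks of replicate 1 (Wilson 95% interval 76.8 to 82.3) and 80.4% of those of replicate 2 had a counterpart in the other library. The share was 49.2% for replicate 1 in windows crowded in it alone, against 51.0% over all its peaks. It was 19.9% (18.4 to 21.4) for replicate 2 in windows crowded in it alone, against 79.7% over all. With the weakest quartile of each list left out, the windows were chosen anew. Then 48 windows, in place of 252, were crowded in replicate 2 only. In these 48 the share was 57.6%, while the 79.7% is over the full list. The median signal of replicate 2 in them was 1.09 in place of 0.350, and leaving out weak peaks itself raises a median. The intervals cover counting error only. Peaks could also overlap others of their own list, and 16.4% and 20.98% did in windows crowded in both, against 2.74% and 5.46% over all peaks. The peaks of crowded windows lay in exons outside promoters in 16.2% and 16.6% of cases (both, replicates 1 and 2), 10.6% (replicate 1 only) and 14.2% (replicate 2 only), against 6.12% and 6.97% over all peaks. Promoters were taken as 1 kb on either side of the start of a coding transcript. They held 38.0% and 39.7% of the peaks in windows crowded in both and 42.3% in replicate 1 only. Over all peaks the shares were 27.9% and 38.7%, so in windows crowded in both replicate 2 stood close to its general share. With windows of 10 or more midpoints the shares for windows crowded in both were 21.3% and 21.1%. Promoters held 25.2% in replicate 2 only, where the share over all peaks of that library was 38.7%.

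The weakest quartile of replicate 2 supplied most of the peaks in windows crowded in it alone. Of its 2795 peaks there, 1978 (70.8%) lay in the weakest quartile of the library. Of these 1978, 1220 (61.7%) overlapped the stricter of the authors' peak lists, against 19.7% of all peaks in that quartile. A further comparison was with replicate 1, where 42 (2.12%) had an overlapping peak, against 40.6% of all in the quartile. A footprint was present in 35.1% of them and in 39.9% of the quartile as a whole. The choice of these windows, with at most 7 midpoints of replicate 1, itself keeps the share in the other library low.

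**Figure D4:**
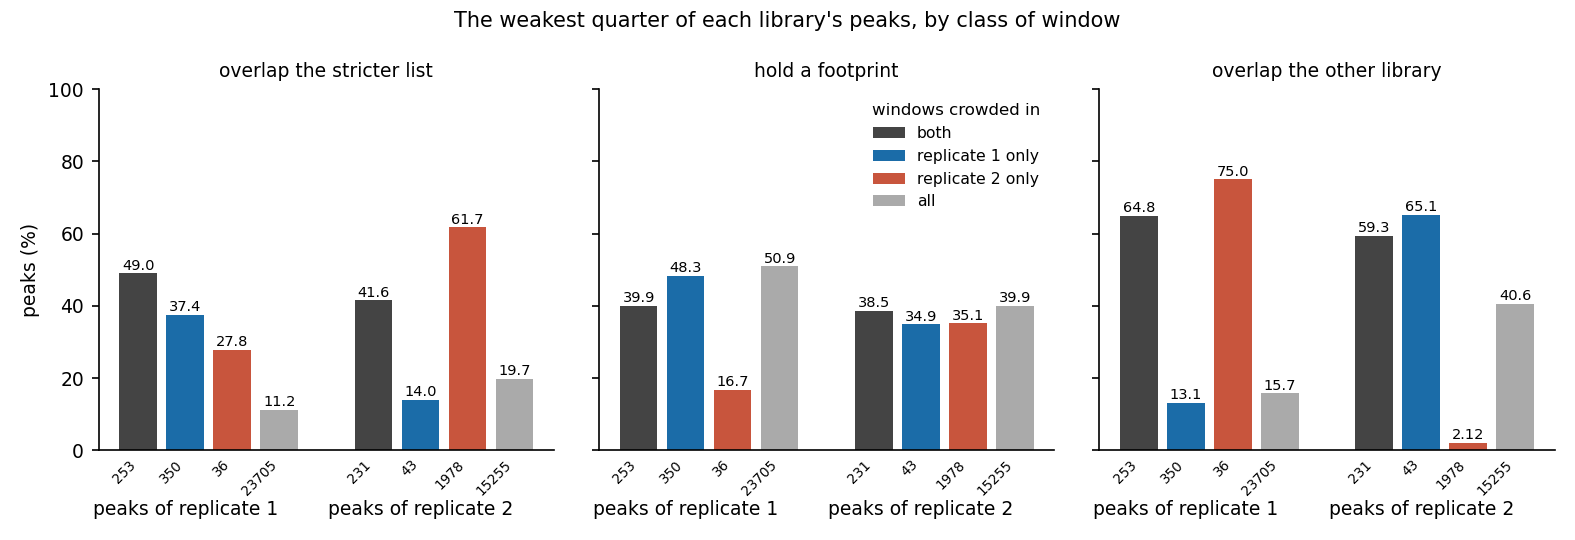
Percentages of the peaks in the weakest quartile of each library that overlap the stricter list (left), hold a footprint (middle) or overlap a peak of the other library (right), by class of window, with the number of peaks under each bar. In windows crowded in replicate 2 only, 61.7% of the weak peaks of replicate 2 overlap the stricter list and 2.12% overlap replicate 1.

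Footprints were numerous where both libraries crowded. The median window crowded in both held 28 footprints of replicate 1 and 27.5 of replicate 2, against 3 in either library over all windows with a midpoint in it. Windows crowded in replicate 1 only held 23 and 16, and those crowded in replicate 2 only held 5 and 16.5. In the peaks of the library that chose the window, the share with a footprint was lower than over all peaks. A footprint lay in 71.4% and 70.6% of peaks in windows crowded in both, 73.2% in replicate 1 only and 49.1% in replicate 2 only, against 81.1% and 76.9% over all peaks. The peaks of the other library had higher shares, 81.5% for replicate 2 in windows crowded in replicate 1 only and 83.8% for replicate 1 in those crowded in replicate 2 only. The many footprints of a crowded window thus went with its many peaks. Among 10 motifs searched on both strands of the 150 bp at the peak centre, GGGCGG, the GC box read by SP and KLF factors, was in 20.4% and 20.1% of peaks in windows crowded in both. It was in 17.3% and 22.2% of all peaks. In windows crowded in replicate 2 only it was in 10.9% of replicate 2 peaks and 30.0% of replicate 1 peaks. The core of the motif of CTCF, the insulator protein, was in 3.28% and 3.77% of peaks in windows crowded in both. The shares over all peaks were 6.34% and 7.16%. In windows crowded in replicate 2 only, 2.15% of replicate 2 peaks and 6.58% of replicate 1 peaks had it. CAGCTG, the E-box, was in 15.1% and 13.8% of peaks in windows crowded in both, against 18.1% and 15.4% of all. In windows crowded in replicate 2 only, 12.7% of replicate 2 peaks and 15.7% of replicate 1 peaks had it. The other 7 motifs searched were TGANTCA of AP-1, GGAATG of TEAD factors, CCAAT of NF-Y, CCGGAAG of ETS factors, and those of MEF2, NRF1 and CREB. A match is a description of the letters and not a bound site.

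Some crowded windows adjoined each other. Of the 462, 323 stood alone and the others formed 49 pairs, 8 runs of 3, 3 runs of 4 and 1 run of 5. Windows crowded in replicate 2 only adjoined another crowded window in 38.5% of cases, those in both in 26.3% and those in replicate 1 only in 16.4%. The same share over other windows is not given, so these values have no general level beside them. The run of 5 (chr17:31860001-31910000) lies beside Sik1, which encodes a salt-inducible kinase, and reaches Hsf2bp. Its windows held 6 midpoints of replicate 1 and 81 of replicate 2. In its fullest window replicate 1 had 2 peaks and replicate 2 had 19, with median signals of 1.03 and 0.316. The run on chr7:142460001-142500000 held 44 and 46 midpoints over Lsp1, an F-actin binding protein of leukocytes, and the neighbouring end of Tnnt3, fast skeletal troponin T. Here the libraries were filled alike, and 3 of the 4 windows were crowded in both. By chromosome, 11 had the largest number, 65 crowded windows (1.58% of its windows with a midpoint), and 13 had 4 (0.141%).

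The windows with the most midpoints in both libraries together were of several kinds. Plec encodes plectin, which ties intermediate filaments to Z-discs and cell junctions. The window at chr15:76170001-76180000 held 18 midpoints in each library and was 88.9% exon and 77.0% coding, with 60.6% GC. Its signals ran only from 0.225 to 0.379 in replicate 1 and from 0.376 to 0.666 in replicate 2, so no peak stood out. Of the 18 peaks of replicate 1, 13 overlapped one of replicate 2. Plec had 3 crowded windows, 2 of them in both libraries.

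Bahcc1, which encodes a chromatin protein with a BAH domain, showed the opposite shape. Its window at chr11:120230001-120240000 held 12 and 14 midpoints (replicates 1 and 2) with a CpG ratio of 0.752. The strongest peaks reached 17.02 and 14.4 and the medians were 1.502 and 2.53. Tnrc18 had 13 and 12 midpoints with strongest peaks of 11.4 and 8.90. Tns2, a focal adhesion protein, had 13 in each with strongest peaks of 3.48 and 3.08. Nfic, a nuclear factor I transcription factor, had 15 and 14 with strongest peaks of 3.48 and 2.50, and 59 footprints of replicate 1.

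Further windows among the 12 fullest had less exon than Plec. Acap3, which encodes an Arf GTPase-activating protein, had 16 and 17 midpoints, 40.5% exon and strongest peaks of 0.373 and 0.427. The window of B4galt5, a galactosyltransferase, had 11 and 16 with strongest peaks of 0.373 and 0.572. A window 18443 bp from B4galt5 had 14 and 16 with 1.22 and 1.69. Zfand3 had 12 and 14, and 1.05 and 0.675 were its strongest peaks. Exon content of at least 50% was found in 8, 14 and 27 windows of the 3 classes (10.53%, 10.4% and 10.7%), against 1.91% of all windows with a midpoint.

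**Figure D5:**
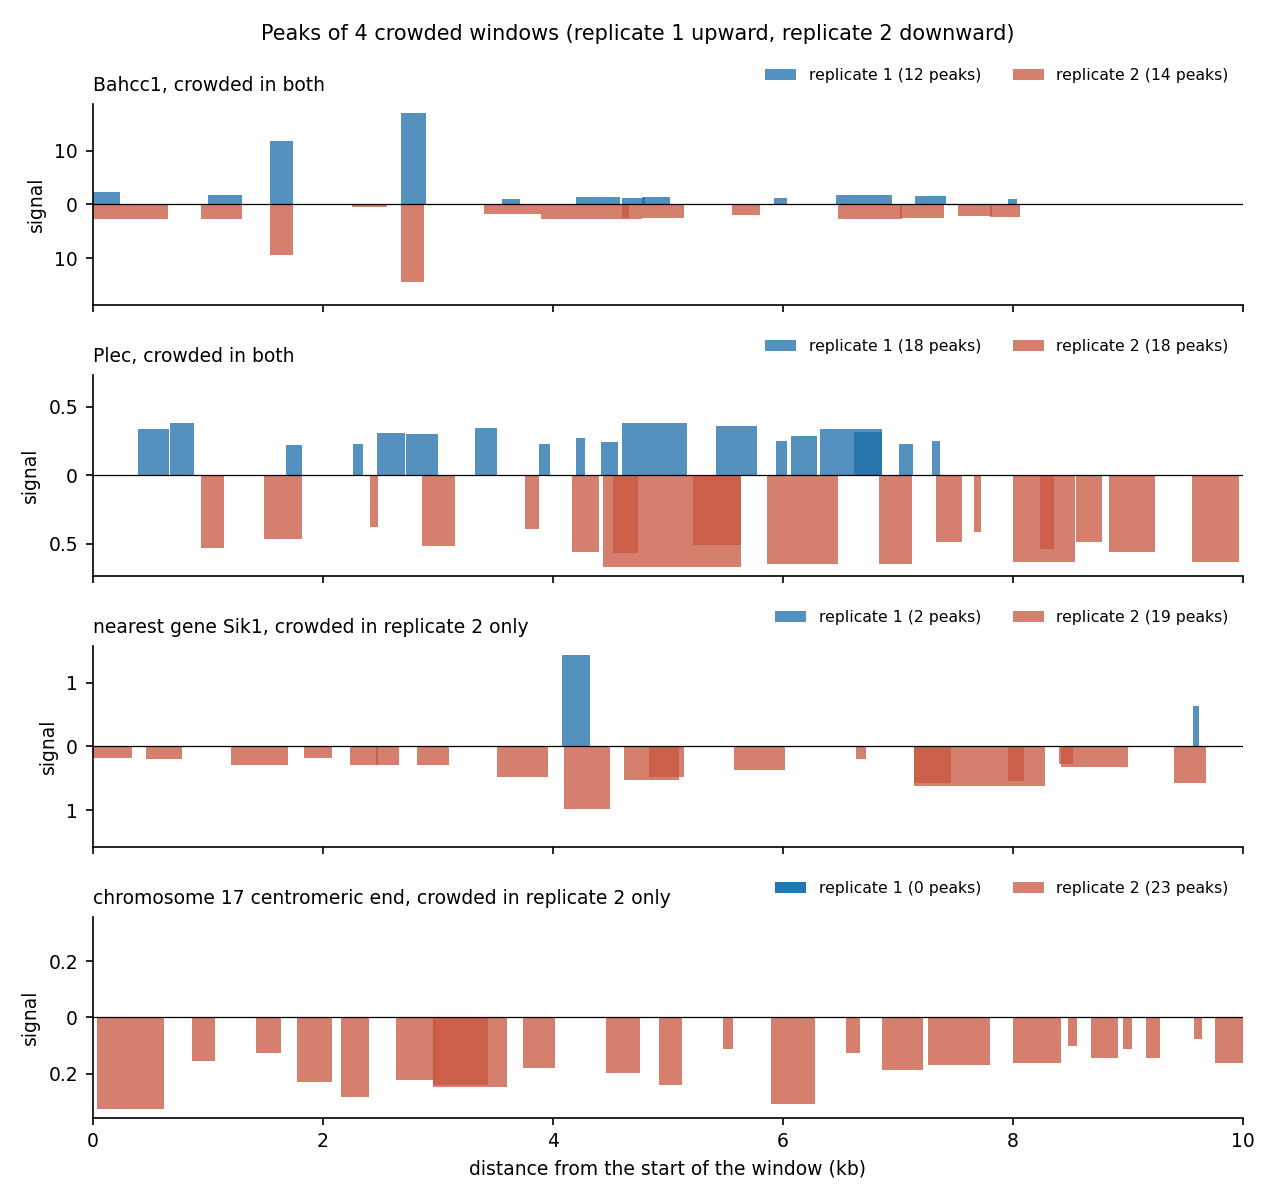
Peaks along 4 crowded windows, by distance from the window's start in kb, with the signal of replicate 1 upward and of replicate 2 downward on axes scaled for each window. Bahcc1 has a few strong peaks at the same places in both libraries, Plec has low peaks of even height in both, and the other 2 windows have many low peaks of replicate 2 with 2 and 0 peaks of replicate 1.

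Among the 6 fullest windows crowded in replicate 1 only, Flnc (filamin C, an actin crosslinker of the Z-disc) had 17 and 7 midpoints in replicates 1 and 2, 36.9% exon and strongest peaks of 0.704 and 0.854. Smtn, which encodes smoothelin, had 15 and 4, and Pusl1 with Acap3 had 13 and 3. Their strongest peaks, 7.07 and 6.59 at Smtn and 7.46 and 6.77 at Pusl1, were alike in the libraries. The window between genes nearest Bahcc1 had 14 and 2, and Padi2, a peptidylarginine deiminase, 13 and 2. Mid1, a ubiquitin ligase gene that crosses the pseudoautosomal boundary in C57BL/6 mice, had 14 and 2 in one window and 12 and 2 in the next.

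Among the 6 fullest windows crowded in replicate 2 only, replicate 1 had at most 3 midpoints. The window of Nfic and Celf5 had 1 and 20 midpoints in replicates 1 and 2, and the next window of B4galt5 had 1 and 19. Hdac4, a class IIa histone deacetylase that represses MEF2 factors, had 0 and 19 in a window with no exon, with signals of replicate 2 from 0.128 to 0.419. Sgsm2 had 3 and 18, and there the strongest peaks were 5.39 and 2.81. The remaining members of this group were the Sik1 window and the chromosome 17 repeat, with 0 and 23.

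Genes of muscle were present among the crowded windows but not throughout their lists. Of 28 genes of the sarcomere and triad shared by all fibre types, 6 overlapped a crowded window, where the share over all coding genes was 2.07%. They were Plec, Flnc, Bin1, Dysf, Tcap and Ttn. Ttn, the giant spring protein of the sarcomere, had 0 and 9 midpoints in a window of 75.1% exon, with signals of replicate 2 no higher than 0.342. Of 16 fast-fibre contractile genes, 3 did: Tnnt3 (8 and 8 midpoints), Mylpf, the fast regulatory light chain (10 and 4), and Tnni2, fast troponin I (4 and 11). The counts were 0 of 12 slow-fibre contractile genes and 0 of 18 genes of oxidative metabolism, where 2.07% comes to less than 1 gene in each. Of 17 genes of glycolysis and glycogen use, 4 did. Gapdh had 10 and 8 midpoints with strongest peaks of 6.96 and 6.93. Pygm, muscle glycogen phosphorylase, had 11 and 1, Tpi1 had 4 and 10, and Eno3, the muscle enolase, had 6 and 8.

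Transcription factors of muscle were also among the genes with crowded windows. Of 20 listed, 3 overlapped one, where the share over all coding genes was 2.07%. Nfix, which directs the switch from embryonic to fetal muscle, had 4 crowded windows, 2 in each library and none in both. Mef2d had 9 and 6. Of 176 genes in families of developmental transcription factors, 28 overlapped a crowded window, 9 of them one crowded in both. The share over all coding genes was 2.07%, but this list was drawn up after the windows had been seen. Lbx1, required for limb muscle precursors to migrate, had 13 and 10 midpoints. Sox6, a repressor of slow-fibre genes, had 13 and 9, and Sox4 had 10 and 10 with every peak shared. Otx1, known from the brain, had 2 crowded windows, with 11 and 10 and with 11 and 8, and no peak above 1.88 in either.

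Of 39 Hox genes, which give position along the body and limb, 8 overlapped a crowded window and none overlapped one crowded in both. The share over all coding genes was 2.07%. Neighbouring Hox genes shared windows, so these are not 8 separate cases. The windows over Hoxa7, Hoxa9 and Hoxa10 had 4 and 12 and then 3 and 14 midpoints. Hoxd9 and Hoxd10 shared a window with 10 and 4. Foxa1, a pioneer factor of endoderm, had 0 and 9 with no signal above 0.837.

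Immediate early and stress genes gave 7 of 22, where the share over all coding genes was 2.07%. Myc had 9 and 8 midpoints, and all 9 peaks of replicate 1 overlapped replicate 2. Zfp36, a protein that promotes mRNA decay, had 10 and 8 in a window whose strongest peaks were 8.4997 and 9.43. Nr4a1, a nuclear receptor induced by exercise, had 2 crowded windows, with 2 and 10 and with 1 and 18. Klf4 and Ier2 had 8 and 6 and 8 and 7, and Atf3 and Egr3 had 7 and 8 and 6 and 11. Large signalling and chromatin regulators gave 7 of 26, 6 of them in replicate 2 only. Kmt2d, a histone H3 lysine methyltransferase, had 1 and 14, and Bcl9l, a coactivator of Wnt signalling, had 8 and 35 midpoints over 3 windows.

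Genes of the connective tissue of muscle were also present. Of 17 fibroblast and matrix genes, 3 overlapped a crowded window. Col1a1, the main fibrillar collagen chain, had 25 and 15 midpoints over 2 windows, with strongest peaks of 4.34 and 4.30. Pdgfra, the receptor that marks fibro-adipogenic progenitors, had 11 and 7, and all 7 peaks of replicate 2 overlapped replicate 1. Sox17 alone of 14 endothelial genes did (4 and 8). None of the listed genes of smooth muscle and pericytes (10), Schwann cells (9), macrophages and leukocytes (11), the erythroid lineage (10), neurons (9) or hepatocytes (8) did, where 2.07% over all coding genes comes to less than 1 gene per list. Of the imprinted genes, Peg10 and Sgce shared a window with 8 midpoints in each library, and 2 of 14 were in a crowded window. Collagen chains gave 4 of 44, Zfp zinc finger genes 6 of 365, ribosomal protein genes 2 of 84, these last 2 lists being close to 2.07%, and housekeeping genes 1 of 17, which was Actb (10 and 6). Of clustered genes other than Hox, 0 of 67 histone genes, 0 of 56 protocadherins, 0 of 49 keratins and 0 of 1092 olfactory receptors overlapped a crowded window. For the histone, protocadherin and keratin lists 0 is near the 2.07% over all coding genes.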

How the data were processed

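Nuclei of gastrocnemius from male mice (2 libraries) were assayed by DNase-seq, and per the labels positions are on mm10. The authors deposited for each library 2 peak lists, footprints and per-position q-values. Peaks and footprints were called per library by the authors (tools not given in the sources used here). Peak signal as deposited by the authors was a whole multiple of 1 step in 100% of peaks (within 0.1 of a whole number); the step was 0.00591 and 0.00854 in replicates 1 and 2, read here as 1 tag scaled to library size. The deposited q-value, a p-value adjusted by the authors, is listed only below 0.05, and the bases so listed were counted per window. The longer list was used unless stated. The deposited footprint score is the constant 0.01 and ranked nothing.

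Midpoints were counted in 10 kb windows of 21 chromosomes. Exons, coding sequence and starts came from GENCODE M21 (21938 coding genes of 55413), and bases and soft-masked repeats from the RefSeq copy of GRCm38. A peak was shared where it overlapped the other library by at least 1 bp. Promoters spanned 1000 bp on each side of a start. Named windows were the 12 crowded in both with most midpoints and the 6 fullest of each single-library class, with ties broken by summed signal, and list members; 1 list member is not reported here. Members and lists were chosen with earlier results of these data known. Counting was tested on simulated data. Python 3.11.15, pandas 2.3.3, numpy 2.4.6, scipy 1.17.1, pysam 0.24.0 and matplotlib 3.10.9 were used.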

Additional observations from a re-analysis of the deposited data

How the results depend on the processing

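The number of crowded windows, 462 in at least 1 library and 76 in both, moved with most choices. With 6 midpoints it was 1211 and 274, with 10 midpoints 237 and 27, with the stricter peak lists 205 and 21, and with peaks joined over gaps of at most 100 bp 276 and 31. With the same number of strongest peaks taken from each library, 38 were crowded in both, and 290 in replicate 2 only. With the weakest quartile of each list left out, an alternative chosen after seeing the data, the numbers were 161 and 45, with 68 in replicate 1 only and 48 in replicate 2 only. By single library there were 210 to 328. The values that follow are means of 1 value per library, a median or a share, except where given by single library. The mean exon content of 17.9% became 13.98% with 6 midpoints, 21.3% with 10, 16.3% with the grid shifted by 5 kb, 16.3% with the stricter lists and 20.1% without the weakest quartile. It was 18.5% without the first 1 Mb of each chromosome (also chosen after seeing the data), 13.5% in exons of coding genes and 4.27% in coding sequence. GC content of 51.7% became 50.8%, 52.1%, 52.3%, 52.0% and 52.8% with 6 midpoints, 10 midpoints, equal numbers of peaks, joined peaks and no weakest quartile, and was 56.6% in the peaks alone. The peak signal of 0.564 became 0.819 with equal numbers of peaks and 1.21 without the weakest quartile. It was 1.12 with the mean over peaks in place of the median. Without the weakest quartile there were 28.5 footprints in place of 22, 45.2% of peaks at promoters in place of 34.5%, and 71.9% shared with the other library in place of 47.4%. Promoters of 500 and 2500 bp gave 22.4% and 54.0%. By single library, exon content was 17.5% to 18.2%, GC content 51.6% to 51.8%, signal 0.419 to 0.710, footprints 19 to 25, promoter share 28.4% to 40.6% and shared peaks 33.3% to 61.5%. Of 86 such values recomputed, 52 moved by less than the spread between libraries or, for the number of windows, by less than 1.5 times. The 52 include values of a single library, which, apart from the number of windows, could not fall outside that spread. Both the mean and the spread came from the same 2 libraries, whose sets of crowded windows share 76. No paired analysis was possible because there was 1 group. Replicate 2 is the shallower library, and the weakest peak listed held 7 tags in it and 6 in replicate 1.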

Other observations

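Some crowded windows at the assembly starts of chromosomes were made of repeated words. The 12-base word agcactgtgaca was the most repeated word of several crowded windows. It occurred at least 10 times on either strand in 12 of the 63171 windows with a midpoint, and 9 of these 12 were crowded. As the word was already known from crowded windows, the 9 of 12 is a description only. Those 9 lie between 3000001 and 3090000, the start of the assembled sequence, on chromosomes 3, 4 and 17. On chromosome 4, windows beginning at 3050001 and 3060001 held 16 and 21 midpoints of replicate 1 and 15 and 15 of replicate 2. On chromosome 17, the 3 windows from 3000001 to 3030000 held 10, 23 and 16 midpoints of replicate 2 and 0 of replicate 1, and those of chromosome 3 at the same positions held 10, 12 and 16 against 0. The third such window of chromosome 4, at 3080001, held 1 and 14, and the window before it, which had the word under 10 times, held 10 and 3. The same word thus went with midpoints of both libraries in the first pair and almost only of replicate 2 in the other 7. How reads were placed among copies of a repeat is not stated by the labels, and the part of the repeats in these counts was not tested.

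Other crowded windows made largely of repeated words were on chromosome 9 at 3020001 (8 and 9 midpoints in replicates 1 and 2, 78.7% of its words repeated at least 5 times), on X at 170810001 near Asmt (11 and 0, 69.3%) on chromosome 18 at 3110001 (1 and 8, 44.4%) and on chromosome 2 at 116550001 near Tmco5 (0 and 12, 44.8%). All 5 crowded windows of X and the 1 of Y were crowded in replicate 1 only. They included Bcorl1 (10 and 4) and Fgf16 (8 and 4), besides those of Mid1 and Asmt, and a window of Y near its end at 90740001 (8 and 7).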
